A study of Mus musculus with 10 samples.

Results

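ENSMUST00000070897 is an unnamed mouse transcript that this array reads with 1 probe, A_52_P74524, among 41174 non-control probes with 27729 gene or transcript names. It was chosen because its level differed strongly between the genotypes, so that difference is described here without a test. It is set against the 9 other probes around it, chosen by position alone, which run from base 119925752 to base 120153444 of chromosome 11 (mm9).

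RNA was measured in spontaneous lymphomas of 10 mice, on 1 single-colour (Cy3) array of 60-base probes per tumour. The tumours came from 5 mice heterozygous for a C/EBPβ LIP allele (+/L, mice 20, 866, 688, 23 and 517) and from 5 wild-type mice (+/+, mice 40, 11, 101, 17 and 19). C/EBPβ is a transcription factor, and LIP is its short isoform, which keeps the DNA-binding part and lacks most of the activating part. The +/L mice were 11 to 21 months old and the +/+ mice 20 to 29 months old, with mean ages of 18 ± 4.06 months in +/L, against 24.9 ± 3.47 months in +/+ (± SD, 5 mice per genotype; p = 0.032 by exact permutation, two-sided). The genotypes came from 1 cohort whose tumours arose without a named treatment, the strain is not given in the labels, and each sample is a piece of whole tumour.

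Unnamed transcripts of this kind entered array designs through large cDNA collections, in which clones without a known protein received only a record number. Many of them lie next to, or on the opposite strand of, a better known gene. Some are long noncoding RNAs, which act as RNA or have no known role, and others are alternative ends of a neighbouring gene. The files call ENSMUST00000070897 a putative uncharacterized protein and list the cDNA clone A130088E03 (AK038227) for it. None of these 3 records was found in the RefSeq gene table used here (GRCm38.p6), so no gene name or function is given to it.

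The probe lies on the plus strand at chr11:120047925-120047984 (mm9). Both probes that flank it belong to 2810410L24Rik, annotated by RefSeq as a long noncoding RNA, and both lie on the minus strand. One is at chr11:120047775-120047834, with 90 bases between the probes, and the other at chr11:120049769-120049828, with 1784 bases between. All 3 sequences are shown because they sit together in the genome but read opposite strands. Capitals mark ATTAAA, a common variant of the poly(A) signal.
ENSMUST00000070897 (A_52_P74524, plus strand): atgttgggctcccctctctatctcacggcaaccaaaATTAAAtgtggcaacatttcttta
2810410L24Rik (A_52_P626035, minus strand): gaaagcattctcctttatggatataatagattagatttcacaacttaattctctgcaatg
2810410L24Rik (A_52_P59285, minus strand): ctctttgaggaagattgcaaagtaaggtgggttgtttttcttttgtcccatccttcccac

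The ATTAAA of the ENSMUST00000070897 probe starts at its base 37. Of all 41174 probes, 2.90% hold ATTAAA on their own strand and 2.97% hold its reverse complement, and 1 of the 10 window probes holds it on its own strand. The commoner signal AATAAA was in no window probe, against 4.78% of all probes on their own strand and 4.25% as the reverse complement. The probe begins at base 1268 of its record and has a GC content of 41.7%, close to the median of 40% over all probes. No stretch of 20 bases of it, on either strand, was found in any of the 41173 other probes, and none of those lists one of its records. Exons, introns and UTRs at these coordinates were not used here.

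Before the values, some arrays need a remark. For mice 866 (+/L) and 17 (+/+) the file name and header give another slide than the description label. On 8 of 10 arrays the sex-linked transcripts matched the labelled sex. On the arrays of mouse 20 (+/L) and mouse 11 (+/+) the label is male, but Xist was well above background and the Y-linked Ddx3y, Eif2s3y and Kdm5d were not. Between 48.0% and 66.7% of non-control spots were well above background on an array. All levels below are relative to the array's 75th percentile, which was 434 ± 129 signal units for +/L arrays, against 288 ± 61.1 for +/+ arrays (± SD, 5 per genotype; p = 0.032, exact permutation, two-sided). All 8 B-cell marker genes and 7 of 8 T-cell marker genes examined were well above background on all 10 arrays, so the tissue carried the lymphoid transcripts that its label names. Cebpb itself, whose mRNA encodes both isoforms, read 2.69 ± 0.72 in +/L lymphomas, against 3.42 ± 0.81 in +/+ lymphomas at its brighter probe (log2, SD, n = 5 each, limma adjusted p = 0.70 over 26410 probes).

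ENSMUST00000070897 was well above background on all 10 arrays, with no outlier flag. Its level in +/L tumours, as log2 relative to the array's 75th percentile, was -1.36 in mouse 20, -2.27 in mouse 866, -2.07 in mouse 688, -1.78 in mouse 23 and -0.09 in mouse 517. In +/+ tumours it was 1.54 in mouse 40, 1.65 in mouse 11, 1.79 in mouse 101, 1.68 in mouse 17 and 0.92 in mouse 19. Every +/L value lay below every +/+ value, with 1.01 log2 units between mouse 517, the highest of +/L, and mouse 19, the lowest of +/+. The mean level was -1.51 ± 0.87 in +/L lymphomas, against 1.52 ± 0.35 in +/+ lymphomas (± SD, 5 per genotype), a log2 difference of -3.03, or 8.16-fold higher in +/+. Of all kept probes, 1.79% had groups that did not overlap, and 1.22% had groups that did not overlap with +/L lower. Those shares stand only as the setting in which the probe was picked. Age and the 75th percentile of the signal moved with the genotype, and their part in the difference was not tested beyond the fits given below.

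**Figure D1:**
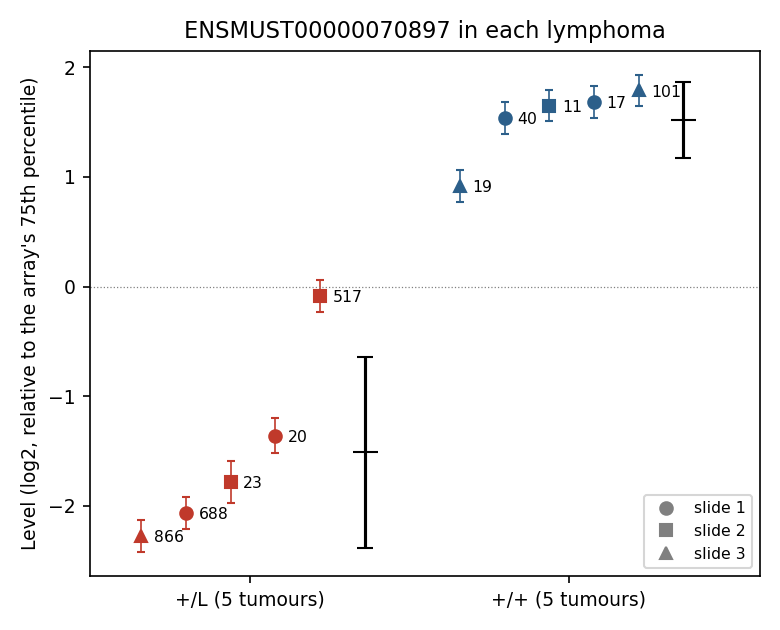
Level of ENSMUST00000070897 in each lymphoma (y axis, log2 relative to the 75th percentile of the array's processed signal), by genotype, with mouse numbers. Bars on points are the scanner software's error of the spot, symbols give the slide of the file header, and black marks are mean ± SD of 5 tumours. The +/L tumours lie between -2.27 and -0.09 and the +/+ tumours between 0.92 and 1.79.

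The separation was also present in the signal before scaling. The processed signal was 90.0 to 383 units in +/L and 607 to 1094 units in +/+ tumours, while the local background around the spot was 20 to 35.5 units over the 10 arrays. Ranked among the non-control spots of its own array, the spot stood at percentiles 58.5 to 74.3 for +/L and at percentiles 81.1 to 86.1 for +/+. The scanner software gave the spot an error of at most 13.4% of its signal, from an error model with a preset proportional part. The transcript was thus measured in both genotypes, at a middling level in +/L and among the brighter spots in +/+.

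The levels spanned 2.19 log2 units among +/L tumours, against 0.87 among +/+ tumours. Compared with 5445 kept probes whose mean level lay within 1 log2 unit of it, the SD of ENSMUST00000070897 stood at percentile 85.3 within +/L and at percentile 48.4 within +/+. Much of the +/L spread came from mouse 517, which lay 1.27 above the next +/L tumour. Without it the 4 other +/L tumours averaged -1.87 ± 0.40, and the log2 difference from +/+ was -3.39. Within the 3 slides of the headers the difference was -3.32, -2.58 and -3.63. Only its size could vary there, since every +/L value lay below every +/+ value. Slide 2 held mouse 517, and its only +/+ array was that of mouse 11. The only +/L array of slide 3 was that of mouse 866. Without mice 866 and 17 the difference was -2.80, and without mice 20 and 11 it was -3.03.

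The spot's surroundings on the slide were examined as measures that did not enter the choice of the probe. The local background was 25.3 ± 6.02 units around +/L spots, against 22.2 ± 1.48 around +/+ spots (± SD, 5 arrays per genotype; p = 0.40, exact permutation, two-sided). The 14 non-control spots within 1 row and 2 columns had a mean log2 level of -3.19 ± 0.74 in +/L lymphomas, against -3.55 ± 0.41 in +/+ lymphomas (p = 0.33, exact permutation). Adjusted over these 2 tests both p-values were 0.40, and the smallest p that 5 against 5 arrays allow is 0.0079. The neighbouring spots averaged 0.36 higher in +/L, a difference that did not pass the test. Their highest means were those of +/L mice 20 (-2.22) and 23 (-2.56). The part of the surroundings in the difference of the transcript was not tested.

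Next, the genes around the transcript were compared between the genotypes. Of the 9 other window probes, 6 passed the filter (3 or more arrays with the spot well above background) and were tested, and 0 of 6 passed in limma with p-values adjusted over 26410 kept probes. Of all kept probes, 0% passed, and 7.96% had an unadjusted p under 0.05, against 0 of the 6 window probes. The 6 differences ran from -0.29 to 0.12 with a median of 0.02, where the median over all kept probes was 0.01. None of the 6 had groups that did not overlap, against 1.79% of all kept probes. At that share, 6 probes would seldom hold any. Only 1 of the 6 was lower on average in +/L, against 49.5% of all kept probes. This count depended on +/L mouse 20. Without it all 6 were lower, from -0.38 to -0.01 with a median of -0.28, where the median over all kept probes was -0.05.

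Slc38a10, a member of a family of amino acid transporters, has 2 probes in the window, which read very different levels. Its probe A_51_P268884, 81970 bases away, read 4.32 ± 0.66 in +/L lymphomas, against 4.21 ± 0.22 in +/+ lymphomas (log2, ± SD, 5 per genotype, difference 0.11 ± 0.31 SE, limma adjusted p = 0.94). Its second probe, A_52_P145914, read -2.63 ± 1.12 in +/L lymphomas, against -2.75 ± 0.21 in +/+ lymphomas. There +/L mouse 20 stood at -0.62, while the other +/L tumours lay between -3.17 and -3.08, just below all +/+ tumours at -3.04 to -2.54. Without mouse 20 this probe differed by -0.38 (limma adjusted p = 0.40).

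Cep131, which encodes a protein of centriolar satellites, read 1.81 ± 0.34 in +/L lymphomas, against 2.10 ± 0.32 in +/+ lymphomas (limma adjusted p = 0.78). Tepsin, an accessory protein of the AP-4 vesicle coat, read 0.40 ± 0.42 in +/L lymphomas, against 0.39 ± 0.29 in +/+ lymphomas (adjusted p = 0.99). Bahcc1, a chromatin protein with a BAH domain and the other gene whose window probe lies on the plus strand, read -2.87 ± 0.67 in +/L lymphomas, against -2.88 ± 1.05 in +/+ lymphomas (adjusted p = 0.998). The unnamed record TC1756583 differed by 0.03 (adjusted p = 0.99). A p that misses the threshold does not show equal levels, and the SE of these 6 differences ran from 0.23 for Cep131 to 0.51 for Bahcc1.

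The noncoding neighbours were dim. On the opposite strand, the 2810410L24Rik probe that lies 90 bases away was not well above background on any of the 10 arrays, so it gives only a bound. The one at 1784 bases was well above background on 1 of 5 +/L arrays (mouse 866, -3.43) and on 1 of 5 +/+ arrays (mouse 17, -4.28). The probe of 2900052L18Rik, another long noncoding RNA, was well above background on 2 of 5 +/L arrays (mouse 20 at -2.54 and mouse 866 at -5.40) and on 0 of 5 +/+ arrays. These 3 probes were left out of the test, so for the noncoding neighbours no difference could be assessed at the detection limit of the arrays. In RefSeq order the genes here are Slc38a10, Gm11769, Gm39486, Gm9734, 2810410L24Rik, 2900052L18Rik and Bahcc1, and no window probe is named for the 3 Gm genes.

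**Figure D2:**
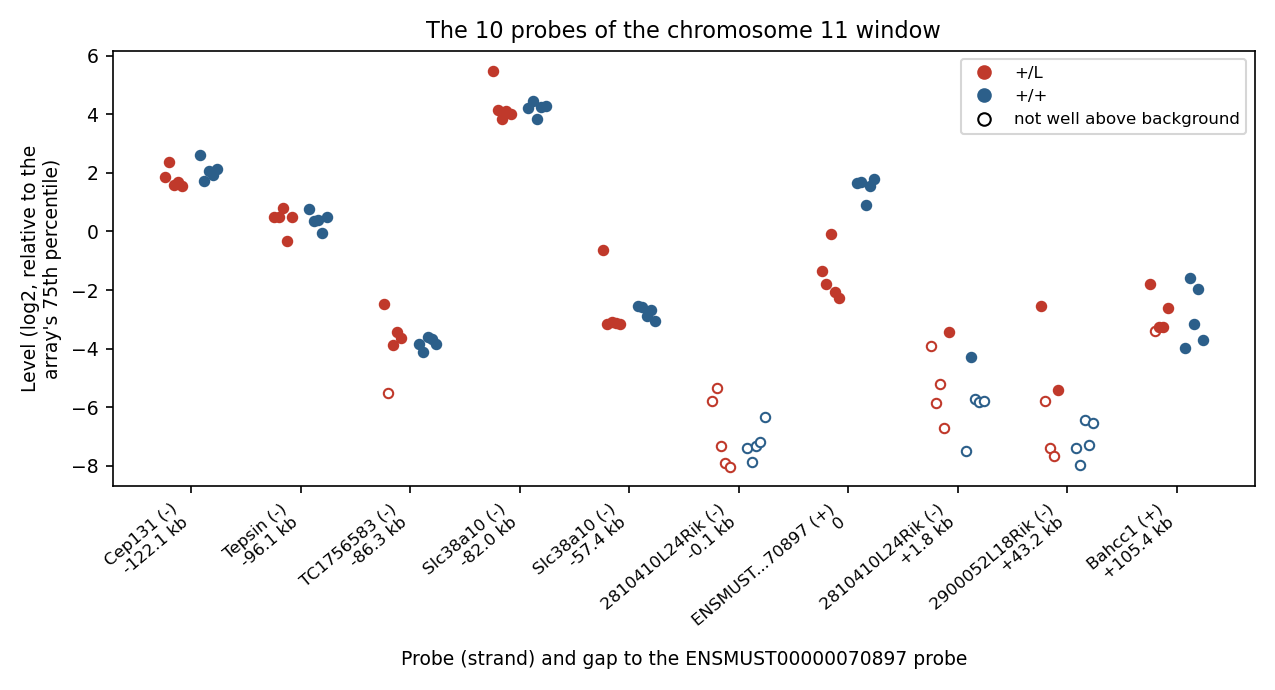
Levels of the 10 window probes on every array (y axis, log2 relative to the array's 75th percentile), in genome order with strand and gap to the ENSMUST00000070897 probe in kilobases. Filled points are well above background and open points are not. The +/L and +/+ points stand apart at ENSMUST00000070897, which was chosen for its difference, and overlap at the 6 other kept probes. Of all kept probes, 1.79% had groups that did not overlap.

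The tumour-to-tumour pattern of the kept neighbours was also compared with that of ENSMUST00000070897. Over the 10 arrays, Pearson's r with it lay between -0.09 (Slc38a10, A_51_P268884) and 0.38 (Cep131). With each genotype's mean taken out, r lay between -0.08 (Cep131) and 0.51 (Tepsin). These r are descriptions over arrays that share their scaling.

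Among all kept probes the difference of ENSMUST00000070897 was the 6th lowest, and on chromosome 11 it was the lowest of 2150. Differences over all kept probes ran from -5.02 to 5.03. Among the 276 kept probes that the files name only by an ENSMUST record it was also the lowest, and the other 275 ran from -1.68 to 3.20 with a median of -0.05. Of those 275, 6 had groups that did not overlap, against 474 of all 26410 kept probes (1.79%). In the fit with age it ranked 65th lowest of all kept probes. These ranks describe the choice of the probe and are not evidence for it.

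**Figure D3:**
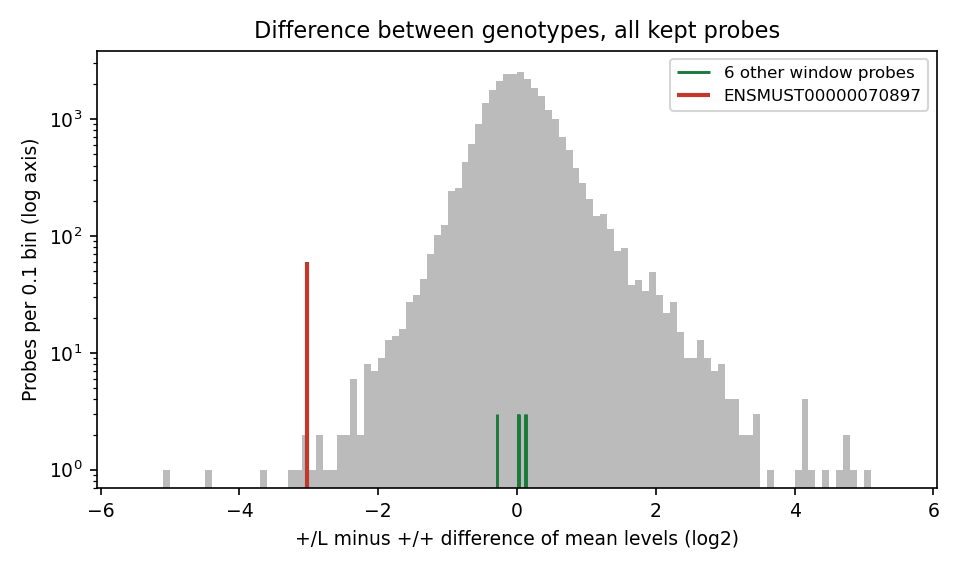
Differences in mean level between +/L and +/+ tumours (x axis, log2) for 26410 kept probes, as a histogram with a log count axis. The red line is ENSMUST00000070897 at -3.03 and the short green lines are the 6 other kept window probes, between -0.29 and 0.12.

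The probes whose pattern over the 10 arrays was most like that of ENSMUST00000070897 were searched among 26409 others. Since the transcript was picked for its genotype difference, probes that resemble it over all arrays differ between the genotypes by construction. The highest r was that of Bcat2 (0.96), the mitochondrial enzyme that starts branched-chain amino acid breakdown. It read -0.76 ± 0.51 in +/L lymphomas, against 0.76 ± 0.44 in +/+ lymphomas (± SD, 5 per genotype). It was followed by Nosip (0.95), which binds nitric oxide synthase, H2-D1 (0.95), a heavy chain of MHC class I, Fbrs (0.94) and H60a (0.94), a ligand of the activating receptor NKG2D. H2-D1 was very bright and differed little in size, at 8.23 ± 0.09 in +/L lymphomas, against 8.81 ± 0.13 in +/+ lymphomas.

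Of these 5 probes, that of H60a (A_51_P335146) had the widest range. It read -3.25, -6.48, -6.93 and -5.15 in +/L mice 20, 866, 688 and 23, where it was not well above background, and 0.97 in +/L mouse 517. In +/+ tumours it read 0.15 to 1.59. Mouse 517, the +/L tumour with the most ENSMUST00000070897, was thus the only +/L tumour in which this probe was well above background, at a level inside the +/+ range. The second H60a probe (A_51_P187898) was well above background on all 10 arrays and read -1.97 ± 0.97 in +/L lymphomas, against -1.44 ± 0.30 in +/+ lymphomas, a difference of -0.52 with overlapping groups. The probes of H60a thus disagree in size and in detection.

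The most opposite probes were Tph1 (-0.95), the enzyme that starts serotonin synthesis outside neurons, Mfap4 (-0.94), a protein of elastic microfibrils, Npr3 (-0.94), a clearance receptor for natriuretic peptides, Tmie (-0.91), known for its role in hearing, and the record AK043110 (-0.90). The Npr3 probe was well above background on 4 +/L and 0 +/+ arrays, and the AK043110 probe on 3 +/L and 0 +/+ arrays. Both passed the filter only through +/L, and their r rests on +/+ readings that are not well above background. Of Tph1, 5 +/L and 3 +/+ arrays were well above background, and of Mfap4 5 +/L and 4 +/+ arrays. Tph1 read -2.10 ± 0.67 in +/L lymphomas, against -4.76 ± 0.43 in +/+ lymphomas. Its lowest +/L value, -3.21, was again that of mouse 517. Second probes of the like genes did not all follow. The other 2 Bcat2 probes had r of 0.87 and 0.53, the second Fbrs probe 0.85 and a second H60a probe 0.56, while a second Nosip probe had -0.31. Of 2 further H2-D1 probes, A_52_P313279 had r of 0.73 and read 8.49 ± 0.23 in +/L lymphomas, against 9.06 ± 0.14 in +/+ lymphomas. The other, A_52_P246277, had -0.20 and was well above background on only 1 +/L and 2 +/+ arrays.

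**Figure D4:**
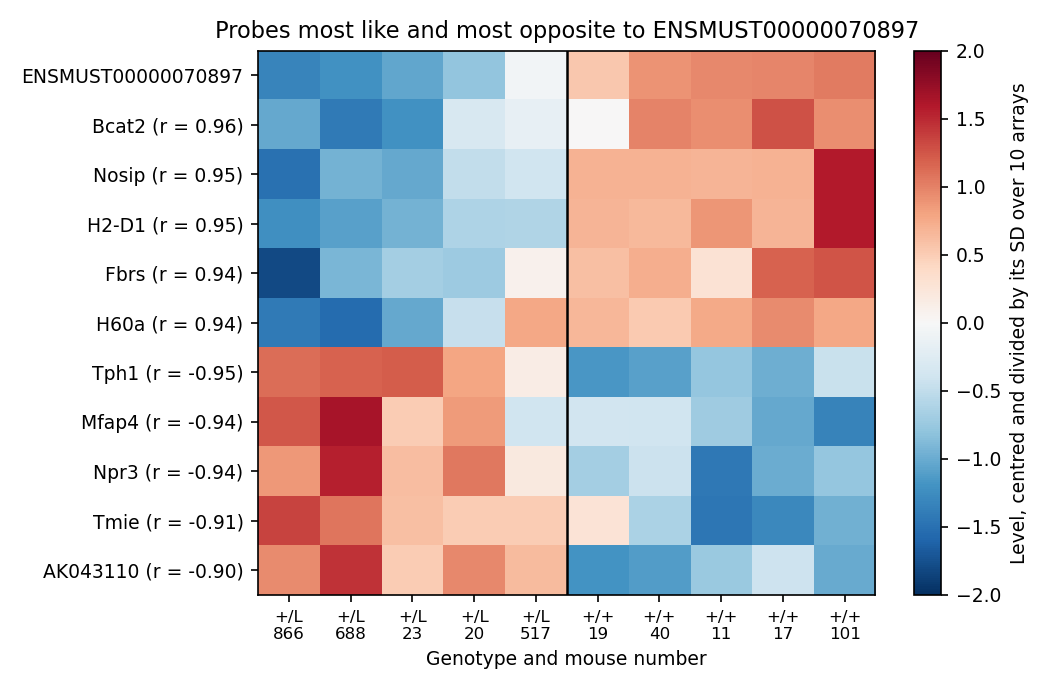
Levels of ENSMUST00000070897 and of the 5 most like and 5 most opposite probes over the 10 arrays, each centred and divided by its SD (colour scale, in SD). Columns are tumours ordered within genotype by the ENSMUST00000070897 level, +/L left and +/+ right, and r is over the 10 arrays. Mouse 517 is the palest +/L column in the top row.

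With each genotype's mean taken out, the genotype difference that chose the transcript no longer enters. The most like probes were then Drc7 (r = 0.95), a part of the motile cilium, Tmem210 (0.94), the record TC1721552 (0.93), H60a (0.93) and Nsd1 (0.92), a histone H3 lysine 36 methyltransferase. The most opposite were the record NAP064207-1 (-0.98), Synpo2 (-0.96), an actin-binding protein, Ctsb (-0.94), the protease cathepsin B, Bmp4 (-0.93), a growth factor, and Msln (-0.92), the surface protein mesothelin. Only H60a was in both sets. Several of these r include readings that are not well above background: NAP064207-1 was well above it on 2 +/L and 2 +/+ arrays, Synpo2 on 2 +/L and 5 +/+, Msln on 3 +/L and 1 +/+, Drc7 on 4 +/L and 4 +/+, and H60a on 1 +/L and 5 +/+ arrays. Mouse 517 stood apart in them: Drc7 read -0.92 there, against -4.92 to -3.02 in the other +/L tumours. Ctsb read -1.99 there, against -0.41 to 0.66 in the other +/L tumours.

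Markers of other cell types were set beside the transcript. In whole tumours, fewer cells of a type and less RNA per cell cannot be told apart. Of 66 kept marker genes in 13 lists, 0 passed in limma over all kept probes and 17 had an unadjusted p under 0.05, against 7.96% of all kept probes. Genes of a list share their source and are not independent. All 6 macrophage genes (Cd68, Csf1r, C1qa, C1qb, C1qc and Adgre1) were well above background on every array and lower on average in +/L. The median difference of these genes was -1.16, and 3 of the 6 had an unadjusted p under 0.05. Their mean score (each gene centred over the arrays) lay between -2.43 and 0.36 for +/L, against 0.04 and 1.22 for +/+, so the genotypes overlap. With genotype means taken out, this score and ENSMUST00000070897 had r = -0.76 over the 10 arrays. The r of the other lists lay between -0.64 (adipocyte) and 0.57 (B cell), with 0.47 for plasma cells. Of the 5 hepatocyte genes, Alb, Apoa1 and Ttr were well above background on 2, 1 and 0 arrays. The other 2, the protease inhibitors Serpina1b and Serpina1c, were well above background on all 10. Their median difference was -2.72, and 2 of 2 had an unadjusted p under 0.05. Their score lay between -2.61 and -0.75 for +/L, against 0.67 and 2.16 for +/+, with no overlap. Among single kept probes, 1.79% had groups that did not overlap. All 6 neutrophil genes, 4 of 4 mast cell genes and 6 of 6 adipocyte genes were higher on average in +/L. Their median differences were 2.21, 1.70 and 2.95, and 2, 3 and 3 of them had an unadjusted p under 0.05. Only 1, 2 and 2 were well above background on all 10 arrays, so these medians include readings that are not. The listed mast cell gene Ms4a2, on 0 arrays, was not kept. Neutrophil scores lay between -0.91 and 3.05 for +/L, against -3.44 and 1.52 for +/+. Mast cell scores were -0.76 to 2.11 against -1.47 to 0.09, and adipocyte scores -2.23 to 4.47 against -3.12 to 2.16, so all overlap. Of 5 smooth muscle genes 2 were higher on average in +/L and 4 had an unadjusted p under 0.05, with a median difference of -1.12. Of the remaining lists, 1 of 8 B-cell, 2 of 8 T-cell, 3 of 6 plasma cell, 4 of 5 fibroblast, 2 of 4 endothelial, 3 of 4 epithelial and 0 of 2 erythroid genes were higher on average in +/L, and none of these genes had an unadjusted p under 0.05. The part of these lists in the result was not tested.

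The size of the difference depended on the processing, and its direction did not. On normexp-corrected and quantile-normalised values it was -2.46, with age as a covariate -2.46 and without scaling between arrays -2.45. In the deposited value table, whose levels for this probe are 7.31 to 8.40 in +/L and 9.38 to 10.1 in +/+ tumours (log2), it was -2.23. The groups did not overlap in any of the 26 alternatives. Those that only leave out arrays or change the fit, the filter or the flags keep the same values for this probe. There the groups could not come to overlap, so only the changes of background correction, scaling or value table could have altered this.

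**Figure D5:**
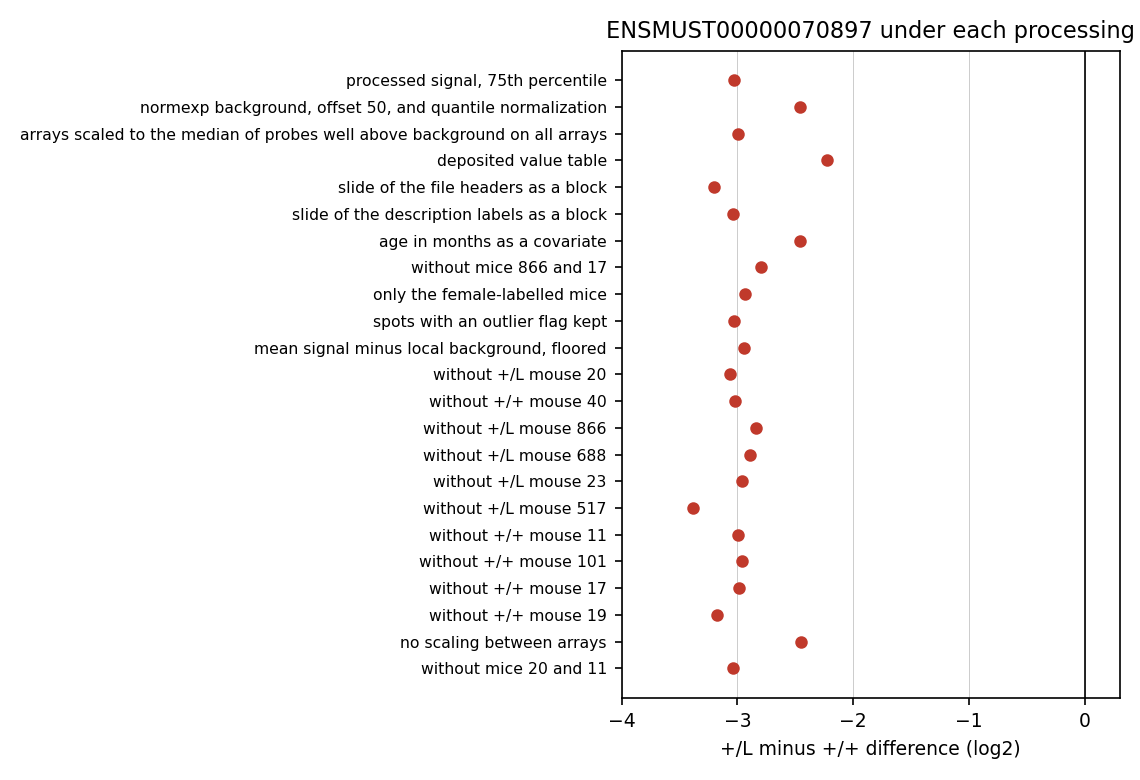
The +/L minus +/+ difference of ENSMUST00000070897 (x axis, log2) under the main processing (top row) and 22 alternatives. Keeping flagged spots could not change it, since this probe had no outlier flag. All points lie between -3.39 and -2.23.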

How the data were processed

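The deposited scanner files hold an intensity per spot, made per the file headers with Agilent Feature Extraction 10.5.1.1 with spatial and multiplicative detrending switched on, and flags for outliers and for spots well above background. The authors' deposited value table is on a log2 scale; how its background was handled is not known here. Its 10 columns correlated best with their own array (r 0.967 to 0.996 with the log2 mean signal), and their medians lay between 6.96 and 6.97.

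For each level the processed signal was divided by its 75th percentile over the non-control spots of that array, and log2 was taken. Flagged spots were left out and spots of a probe averaged. A probe was kept if 3 or more arrays had it well above background (26410 kept, 73 dropped for an outlier flag). Names were updated through RefSeq accessions (25097 probes), symbols (6333) and synonyms (1640), and 8104 kept the file's name. Genotypes were compared probe by probe with limma 3.58.1 in R 4.3.3 (no covariate, Benjamini-Hochberg, threshold 0.05). Single values were compared by exact permutation over 252 splits. In data simulated with 26410 probes this comparison recovered 13.0%, 57.4% and 77.2% of changes of 1, 2 and 3 log2 units.

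The transcript, the window and the lists were chosen with earlier results of these data known. Named genes are the window genes and, by rule, the 5 highest and 5 lowest correlations with the transcript, over all arrays and with genotype means removed, leaving out receptor segments. The 13 cell type lists were B cell, T cell, plasma cell, macrophage, neutrophil, mast cell, adipocyte, smooth muscle, fibroblast, endothelium, epithelium, hepatocyte and erythroid. Replicates carry separate mouse numbers and were taken as separate animals. The number of arrays limits the precision. Alternatives changed background correction, scaling, filter, fit, slide block, age and the arrays used. Leaving out mice 20 and 11, and no scaling, were added after seeing the data.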

Additional observations from a re-analysis of the deposited data

Results flagged for a closer look

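Among 20 sets of 5 values examined for a value far from the others, 4 held one, where chance gives about 1 in 20. ENSMUST00000070897 in +/+ mouse 19 stood at 0.92, with the other +/+ tumours between 1.54 and 1.79. Its gap was 0.713 of the group's range, just past the limit of 0.71. Mouse 517, at -0.09, did not pass that limit within +/L. Both Slc38a10 probes were high in +/L mouse 20. The brighter stood at 5.49 there and between 3.85 and 4.15 elsewhere in +/L. The dimmer stood at -0.62 there and between -3.17 and -3.08 elsewhere in +/L. Tepsin was low in +/L mouse 688, at -0.31, where its +/L companions lay between 0.49 and 0.82.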

How the results depend on the processing

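The log2 difference of ENSMUST00000070897 was -3.03 and ran from -3.39 to -2.84 when single mice were left out. Of 22 alternatives, 21 moved it by less than the pooled SD between tumours of 0.66, and the deposited value table gave -2.23. Among the 21, keeping flagged spots could not move it, since the probe had no outlier flag. Leaving out mice could not move it by 0.66 either, since the spread within each genotype bounds such a shift. The median difference of the other window probes ran from -0.28 to 0.59 over its alternatives, the highest without scaling between arrays, where the median of all kept probes was 0.58. It was -0.28 to 0.15 when single mice were left out. The count of window probes past the threshold was 0 in every alternative run, also at an unadjusted p under 0.05. The count of window probes whose groups do not overlap was 1 without +/L mouse 20, without mice 20 and 11, and among female-labelled mice. As a background count, 0 of all kept probes passed in limma, 1 on normexp and quantile-normalised values and 1 in the deposited value table. Leaving out single mice gave 0 to 3, with 3 without +/L mouse 517. These counts other than 0 include the transcript chosen for its difference and are no test of it. The cause of these changes was not tested. An unadjusted p under 0.05 was reached by 2103 probes, by 963 with the slide of the description labels as a block, by 3349 without +/L mouse 20 and by 1276 without +/+ mouse 101. Without scaling between arrays 5009 reached it, 4955 of them higher in +/L, against 870 of the 2103. The description block leaves 3 of the +/+ arrays out of the genotype comparison. No paired analysis was possible because the genotypes share no mouse numbers. Age differs between the genotypes and cannot be fully told apart from them with 10 arrays. Signal near background limits the noncoding neighbours, and 1 probe alone carries the transcript.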

Other observations

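Of the 5 most like and 5 most opposite probes, 3 lie close together on chromosome 7: Nosip, Bcat2 and Tph1, within 1.57 Mb from 52332687 to 53902665 (mm9). This was noticed after the values were seen. The other 79 kept probes of that stretch included 4 whose genotypes did not overlap (5.06%), against 2.41% of all kept probes on chromosome 7 and 1.79% of all kept probes. Among them, Aldh16a1, of the aldehyde dehydrogenase family, differed by -0.83 and -0.82 at its 2 probes, and Spaca4, a sperm acrosome protein, by -0.71. Neighbouring genes are not independent, and this was not tested. The strain of the mice is not given in the labels, so the difference of ENSMUST00000070897 and those of this stretch are differences between the labelled genotypes, whose strain background is not known here.

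Among the 474 probes whose genotypes did not overlap, mouse 517 was the +/L tumour nearest to wild type in 51 (10.8%). Mouse 23 was the nearest in 154 (32.5%), mouse 20 in 96, mouse 688 in 87 and mouse 866 in 86. Probes on which a +/L tumour entered the +/+ range, such as the H60a probe A_51_P335146, are left out by this choice. The counts therefore do not tell which +/L tumour was nearest to wild type in general.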
